A study of Mus musculus with 12 samples.

Results

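The fibrillar collagen genes of the liver were followed through CCl4-induced fibrosis and lnc-LFAR1 knockdown. The members are the 6 genes Col1a1, Col1a2, Col3a1, Col5a1, Col5a2 and Col5a3, which were taken by gene symbol from 18194 genes measured on Affymetrix Mouse Genome 430 2.0 arrays. Each gene was read from 1 probe set, a group of short oligonucleotides near the 3′ end of the transcript, and where a gene had several, the brightest on average over the 12 arrays was used. All 6 members were measured, and no filter on low values was applied. The arrays came from whole liver of male Balb/c mice that were 8 weeks old when obtained, before the treatments, and all of the mice received a lentivirus by tail vein. In shLFAR1+CCl4 the virus carried a short hairpin RNA against lnc-LFAR1, a liver-enriched long noncoding RNA, and the mice received 5% CCl4 in olive oil (0.3 ml/kg, intraperitoneally, 3 times per week), with virus 2 weeks after the first CCl4 and 4 more weeks of injections. In NC+CCl4 the mice received the same CCl4 and a control virus. In shLFAR1 and in NC the mice received the hairpin virus or the control virus with olive oil in place of CCl4. Each group held 3 arrays out of 10 mice, described as biological replicates. The sources do not say whether 1 array held 1 mouse or several. The hairpin was driven by an H1 promoter, which is not limited to a cell type, so the arrays do not show in which cell type lnc-LFAR1 was lowered. The level of lnc-LFAR1 itself was not analysed here, as the annotation names none of the probe sets for it. For this experiment the paper reports silencing of lnc-LFAR1, measured by qRT-PCR, in whole liver and in primary hepatic stellate cells.

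Fibrillar collagens form the banded fibers that give scar tissue its strength. Collagen chains are made with propeptides at both ends, wind into a triple helix inside the cell, and assemble into fibrils once the propeptides have been cut off outside it. Type I collagen joins 2 chains from Col1a1 with 1 from Col1a2, type III is built from Col3a1 alone, and type V, with chains from Col5a1, Col5a2 and Col5a3, is a minor component that starts fibrils and limits their width. In injured liver, these collagens are made largely by activated hepatic stellate cells and portal fibroblasts.

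Promoter sequences of 4 members were found in RefSeq (build GRCm38.p6): Col3a1, Col5a1, Col1a2 and Col5a3. All 4 are shown, and none was found for Col1a1 and Col5a2, which both rose with CCl4. Of the 4 genes shown, 3 rose with CCl4 and 1, Col5a3, did not pass the test. The 150 bases before the annotated start of each gene are given 5′ to 3′ on the strand of the gene, and capitals mark short motifs that were searched for. Col3a1 lies on the plus strand at chr1:45311388-45311537, Col5a1 on the plus strand at chr2:27886275-27886424, Col1a2 on the plus strand at chr6:4505468-4505617 and Col5a3 on the minus strand at chr9:20815068-20815217.
Col3a1: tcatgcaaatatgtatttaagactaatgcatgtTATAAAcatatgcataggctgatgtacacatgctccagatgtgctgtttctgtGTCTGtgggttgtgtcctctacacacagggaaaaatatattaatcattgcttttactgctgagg
Col5a1: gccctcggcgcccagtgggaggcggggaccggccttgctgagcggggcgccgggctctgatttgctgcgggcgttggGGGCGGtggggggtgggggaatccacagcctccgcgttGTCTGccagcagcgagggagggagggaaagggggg
Col1a2: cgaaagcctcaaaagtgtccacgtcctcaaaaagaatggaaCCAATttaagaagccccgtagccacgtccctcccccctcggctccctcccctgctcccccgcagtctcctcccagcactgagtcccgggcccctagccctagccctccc
Col5a3: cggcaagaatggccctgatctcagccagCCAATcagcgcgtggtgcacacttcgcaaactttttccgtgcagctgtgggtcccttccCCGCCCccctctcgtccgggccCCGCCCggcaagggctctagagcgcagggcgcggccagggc

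Over the 250 bases before the start, 5 motifs were searched on both strands. The TATA box was searched as TATAAA, the CCAAT box by its own letters and the GC box as GGGCGG. The Smad-type element was searched as CAGAC and the AP-1-type element as TGANTCA. None of these motifs overlaps another in its letters. CAGAC was present in Col1a2, Col3a1 and Col5a1 and was not matched in Col5a3, and 42.2% of 32851 promoters of the same length held it. TATAAA was matched in Col3a1 (12.4% of all promoters). CCAAT was matched in Col1a2 and Col5a3 (33.8% of all), and GGGCGG in Col1a2, Col5a1 and Col5a3 (32.7% of all). TGANTCA was matched in none of the 4 promoters (6.75% of all). The promoters also differed in base composition, with 35.2% G and C in Col3a1, 76.4% in Col5a1, 62.0% in Col1a2 and 62.8% in Col5a3, against a median of 52.4% over all promoters. Col3a1 and Col5a2 are neighbouring protein-coding genes on chromosome 1, whereas the other members lie on chromosomes 2, 6, 9 and 11.

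Deposited log2 values ran from 1.82 to 14.52, with array medians between 4.42 and 4.50. A value close to the array median may be background, because the files hold no detection calls. The defining hepatocyte gene Alb was at 14.26 to 14.47 in every array. The array shLFAR1+CCl4 replicate 3 stood apart from its group. On the first principal component (56.3% of the variance) it lay at 39.2, among the NC+CCl4 arrays (34.8 to 48.8), whereas replicates 1 and 2 lay at -6.80 and -9.66 and the 6 oil arrays between -26.7 and -20.4. NC+CCl4 replicate 1 had the highest 3′ minus 5′ difference of the control probe sets for actin (1.31, against 0.704 to 1.07 in the other arrays) and Gapdh (0.716, against -0.205 to 0.0333). Values without either array are given beside the main results, though not for every gene. In bulk liver RNA, fewer cells of a type and less RNA per cell cannot be told apart.

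CCl4 raised the mRNA of 5 of the 6 genes in mice with the control virus, by amounts that differed between genes. The 2 chains of type I collagen and the chain of type III collagen were each 13.0- to 14.0-fold higher in NC+CCl4 than in NC. Among the type V chains, Col5a2 was 6.96-fold and Col5a1 2.36-fold higher, and Col5a3 did not pass the test.

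Col1a1, the major chain of the type I triple helix, was at 8.79, 8.50 and 7.86 in NC+CCl4, against 4.43, 4.48 and 4.81 in NC. The groups did not overlap, and the NC values were close to the array medians. Its log2 change was 3.81 ± 0.57 (SE, 95% confidence interval 2.57 to 5.05, adjusted p = 0.00187). Col1a2, its partner chain, was at 11.46, 11.50 and 11.12 in NC+CCl4, against 7.40, 7.85 and 7.72 in NC. All NC+CCl4 arrays lay more than 3 log2 units above all NC arrays. The change of Col1a2 was 3.70 ± 0.37 (adjusted p = 0.000218). Col3a1, which forms type III collagen, was at 12.02, 12.29 and 11.96 in NC+CCl4, against 8.08, 8.51 and 8.56 in NC. The 3 NC+CCl4 arrays lay within 0.33 log2 units of each other, and the change was 3.71 ± 0.41 (adjusted p = 0.000393).

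The type V chains gave 3 different pictures. Col5a2 was at 8.10, 8.79 and 8.55 in NC+CCl4, against 5.69, 5.76 and 5.61 in NC, a change of 2.80 ± 0.42 (adjusted p = 0.00183). Col5a1 was at 7.27, 7.79 and 6.81 in NC+CCl4, against 5.89, 6.10 and 6.16 in NC. Its groups did not overlap, but its change was smaller, at 1.24 ± 0.34 (adjusted p = 0.0301). That call was lost when any 1 NC array, NC+CCl4 replicate 1 or NC+CCl4 replicate 2 was left out (adjusted p 0.0629 to 0.0978). Col5a3 was at 7.48, 6.74 and 6.03 in NC+CCl4, against 7.09, 6.78 and 6.31 in NC. These ranges overlapped fully, NC+CCl4 having both the highest and the lowest array, and the change was 0.03 ± 0.29 (95% confidence interval -0.61 to 0.66, adjusted p = 0.969). Its highest array, NC+CCl4 replicate 1, also had the highest 3′ minus 5′ differences of the control probe sets. Without that array the change was -0.34 and did not pass the test. Within NC, NC+CCl4 and shLFAR1, but not within shLFAR1+CCl4, the Col5a3 values had the order of the actin difference. An influence of RNA quality on Col5a3 was not tested.

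**Figure D1:**
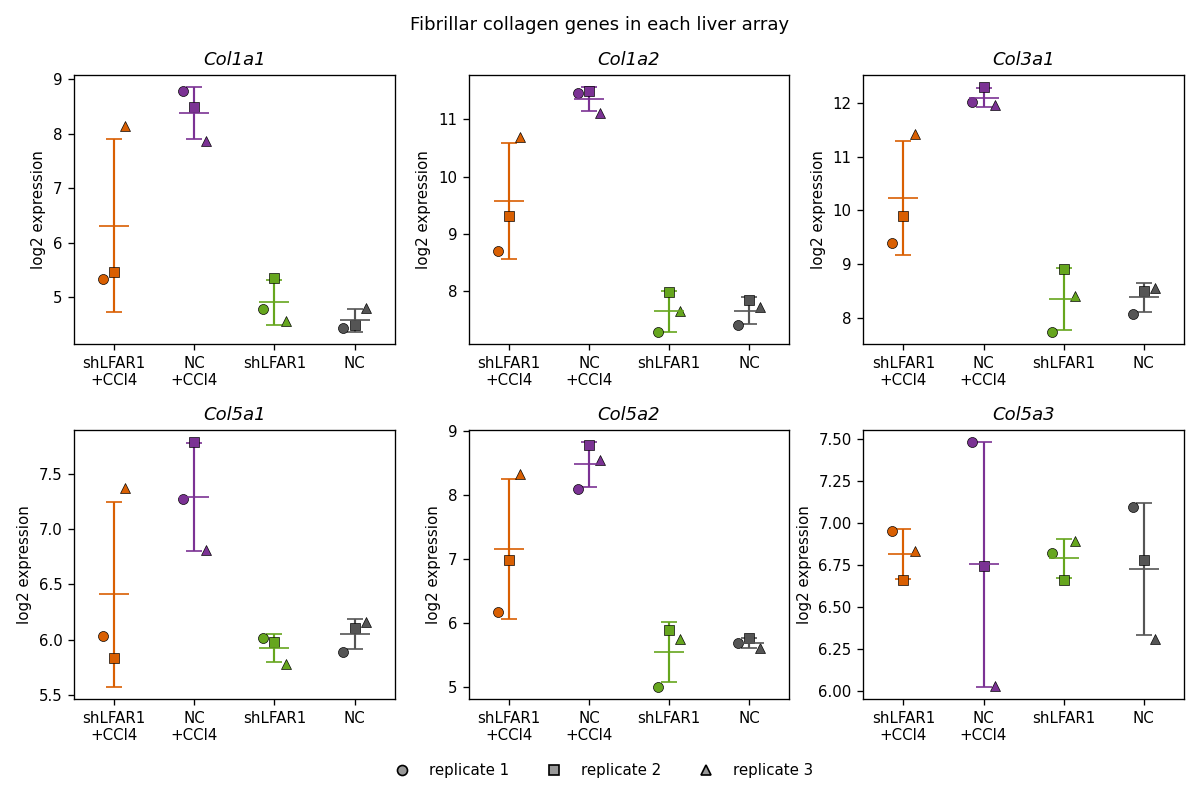
Log2 expression of the 6 fibrillar collagen genes (y axis, 1 panel per gene with its own scale) in the groups shLFAR1+CCl4, NC+CCl4, shLFAR1 and NC; symbols are single arrays, horizontal bars are means and whiskers are SD (n = 3). For Col1a1, replicate 3 of shLFAR1+CCl4 lies at 8.15, next to the NC+CCl4 arrays, while replicates 1 and 2 lie at 5.34 and 5.46.

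In all, 5 of 6 members were called higher in NC+CCl4 than in NC, where 7.66% of all genes tested were called higher and 13.1% were called in either direction. Here and below, called stands for an adjusted p under 0.05 in limma. The arrays did not overlap for these 5 members, as for 29.6% of all genes. The median change of the 6 members was 3.25, against -0.05 for all genes. Leaving out NC+CCl4 replicate 1 left Col1a1, Col1a2, Col3a1 and Col5a2 called, with changes of 3.61, 3.65, 3.74 and 2.99, where 6.31% of all genes were called higher.

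With the hairpin virus under CCl4, the means of 5 collagen genes lay between those of NC+CCl4 and the oil groups, but no member passed the test. In these 5 members shLFAR1+CCl4 was 0.88 to 2.07 log2 units below NC+CCl4, and in Col5a3 it was 0.06 above. Of all genes, 0.291% were called in this comparison, and 0.115% were called lower. At an unadjusted p under 0.05 in limma there were 5 of 6 members, against 14.2% of all genes. The methods' t-test called 2 members at its own threshold of a 1.6-fold change and 0 after Benjamini-Hochberg adjustment. The median change of the members was -1.56, against 0.01 for all genes. With the replicate number as a block over all arrays, no member and 55 genes were called. In a fit of the CCl4-treated groups only, no gene was called either with or without the block. This comparison shares the NC+CCl4 arrays with NC+CCl4 against NC, so a chance deviation of those arrays moves the 2 comparisons in opposite directions.

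Col1a1 showed the widest spread, with 5.34, 5.46 and 8.15 in shLFAR1+CCl4, against 8.79, 8.50 and 7.86 in NC+CCl4. Replicates 1 and 2 were more than 2 log2 units below every NC+CCl4 array, and replicate 3 lay inside their range. The log2 change was -2.07 ± 0.57 (95% confidence interval -3.30 to -0.83, adjusted p = 0.125). Col1a2 was at 8.70, 9.31 and 10.69 in shLFAR1+CCl4, against 11.46, 11.50 and 11.12 in NC+CCl4. These arrays did not overlap, and the change was -1.79 ± 0.37 (adjusted p = 0.0743). Col3a1 had the same order, with 9.39, 9.90 and 11.41 in shLFAR1+CCl4, against 12.02, 12.29 and 11.96 in NC+CCl4. Its change was -1.86 ± 0.41 (adjusted p = 0.0838). Col1a2 and Col3a1 were the 2 members without overlap, against 12.3% of all genes.

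Col5a2 was at 6.17, 6.98 and 8.33 in shLFAR1+CCl4, against 8.10, 8.79 and 8.55 in NC+CCl4, a change of -1.33 ± 0.42 (adjusted p = 0.171). Col5a1 was at 6.03, 5.83 and 7.37 in shLFAR1+CCl4, against 7.27, 7.79 and 6.81 in NC+CCl4, a change of -0.88 ± 0.34 (adjusted p = 0.262). In both genes replicate 3 lay within the range of NC+CCl4 and the other replicates below it. Col5a3 was at 6.95, 6.66 and 6.83 in shLFAR1+CCl4, against 7.48, 6.74 and 6.03 in NC+CCl4, and all of the shLFAR1+CCl4 arrays fell within the NC+CCl4 range. Without NC+CCl4 replicate 1 the change of Col5a3 was 0.43, which was not called.

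Replicate 3 of shLFAR1+CCl4 decided these calls. Without it, 5 members were called lower in shLFAR1+CCl4 than in NC+CCl4, where 4.9% of all genes were called lower. The changes were then -2.98 for Col1a1 (adjusted p = 8.04e-05), -2.35 for Col1a2 (adjusted p = 0.000121), -2.45 for Col3a1 (adjusted p = 0.000339), -1.36 for Col5a1 (adjusted p = 0.00336) and -1.91 for Col5a2 (adjusted p = 0.00182). With weights for the reliability of each array, which limma estimates from the residuals over all genes, the same 5 members were called lower (adjusted p 0.0132 to 0.0447), where 3.08% of all genes were called lower. The weight was 0.396 for replicate 3 of shLFAR1+CCl4, against 2.044 and 1.045 for replicates 1 and 2. In NC+CCl4 the weights were 0.375, 0.623 and 0.768 for replicates 1, 2 and 3, so NC+CCl4 replicate 1 had a lower weight still. The weights thus also lowered the influence of replicate 3 of shLFAR1+CCl4, so this setting is not independent of leaving it out. Without NC+CCl4 replicate 1, no member was called, and the changes were -1.86, -1.74, -1.90, -0.89 and -1.52 in the same order. The labels give no ground for leaving out any array.

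Among mice with the hairpin virus, the comparison of CCl4 with oil asks how much of the collagen response was seen under knockdown. Col1a1 was at 5.34, 5.46 and 8.15 in shLFAR1+CCl4, against 4.78, 5.36 and 4.56 in shLFAR1. Replicate 1 of shLFAR1+CCl4 was below the highest oil array, and the change was 1.41 ± 0.57 (adjusted p = 0.39). Col1a2 was at 8.70, 9.31 and 10.69 in shLFAR1+CCl4, against 7.29, 7.99 and 7.65 in shLFAR1, and its change of 1.93 ± 0.37 lay just outside the threshold (adjusted p = 0.0504). Col3a1 was at 9.39, 9.90 and 11.41 in shLFAR1+CCl4, against 7.75, 8.91 and 8.41 in shLFAR1. Its change was 1.87 ± 0.41 (adjusted p = 0.0826). Neither gene overlapped between the groups.

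Among the type V chains, Col5a2 was at 6.17, 6.98 and 8.33 in shLFAR1+CCl4, against 5.00, 5.88 and 5.74 in shLFAR1, without overlap, and its change was 1.62 ± 0.42 (adjusted p = 0.144). Col5a1 was at 6.03, 5.83 and 7.37 in shLFAR1+CCl4, against 6.01, 5.98 and 5.78 in shLFAR1. Replicate 3 lay well above the oil arrays and replicates 1 and 2 close to them, and the change was 0.49 ± 0.34 (adjusted p = 0.66). Col5a3 changed by 0.02 ± 0.29 (adjusted p = 0.988). No member was called in this comparison, where 0.407% of all genes were called and 0.324% were called higher. At an unadjusted p under 0.05 there were 4 of 6 members, against 10.8% of all genes, and 3 did not overlap between the groups (Col1a2, Col3a1 and Col5a2), as for 20.1% of all genes. Without replicate 3 of shLFAR1+CCl4, Col1a2 was called higher (change 1.37, adjusted p = 0.019), where 0.363% of all genes were called higher. Without replicate 1, Col1a2, Col3a1 and Col5a2 were called higher (adjusted p = 0.013, 0.0309 and 0.0305), where 0.385% of all genes were called higher.

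Set beside the response with the control virus, the mean CCl4 response with the hairpin virus was 37.1% as large for Col1a1 on the log2 scale, 52.0% for Col1a2, 50.6% for Col3a1, 39.3% for Col5a1 and 57.8% for Col5a2. The 2 responses share no array. Single shLFAR1+CCl4 arrays were far apart in this measure. For Col1a1, replicates 1 and 2 were above the shLFAR1 mean by 11.5% and 14.6% of the NC response, and replicate 3 by 85.1%. For Col5a2 the values were 22.4%, 51.4% and 99.6%, and for Col5a1 they were 8.45%, -7.37% and 117%. In each of the 5 genes replicate 3 gave the highest value, and replicates 1 and 2 together ran from -7.37% to 51.4%.

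The difference between the 2 responses, the interaction term of the model, was -2.40 ± 0.81 for Col1a1 (adjusted p = 0.384), -1.77 ± 0.53 for Col1a2 (adjusted p = 0.345) and -1.83 ± 0.58 for Col3a1 (adjusted p = 0.36). It was -0.75 ± 0.48 for Col5a1 (adjusted p = 0.661) and -1.18 ± 0.59 for Col5a2 (adjusted p = 0.559). No member was called in limma, where 0.022% of all genes were called, and 3 members (Col1a1, Col1a2 and Col3a1) had an unadjusted p under 0.05, against 9.51% of all genes. Without replicate 3 of shLFAR1+CCl4, these differences were -3.31, -2.33, -2.42, -1.23 and -1.77 in the same order, and the 5 genes were called (adjusted p 0.000737 to 0.0473), where 2.14% of all genes were called lower. Without NC+CCl4 replicate 1 they were -2.19, -1.72, -1.87, -0.76 and -1.37, and no member was called.

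**Figure D2:**
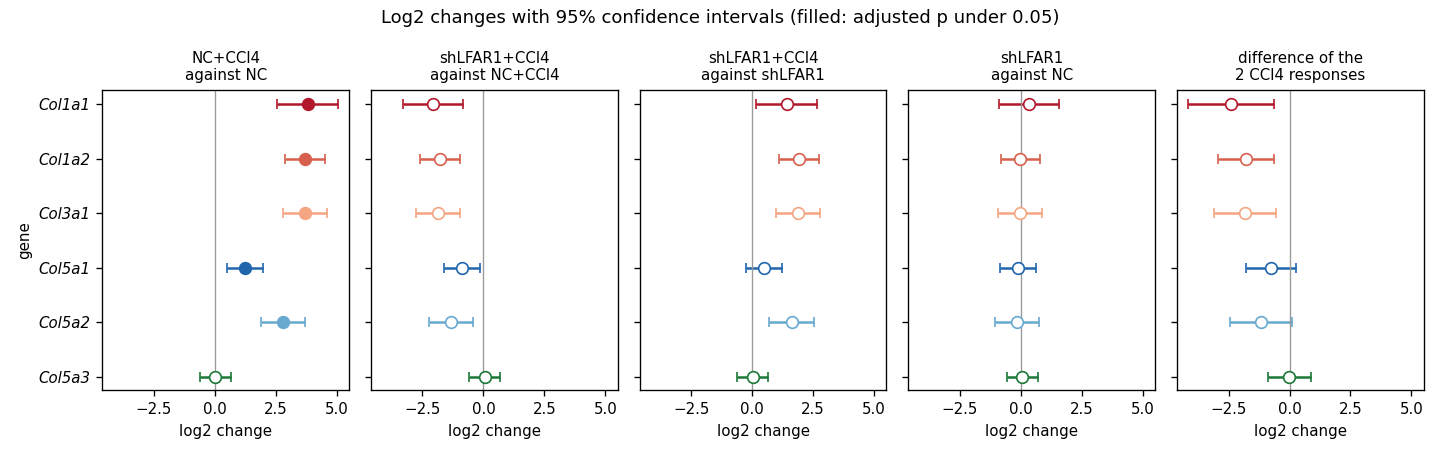
Log2 changes (x axis) of the 6 genes (y axis) in 4 comparisons and in the difference of the 2 CCl4 responses; points are estimates, whiskers 95% confidence intervals and filled points an adjusted p under 0.05. Filled points stand in the panel of NC+CCl4 against NC, for 5 genes.

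**Figure D3:**
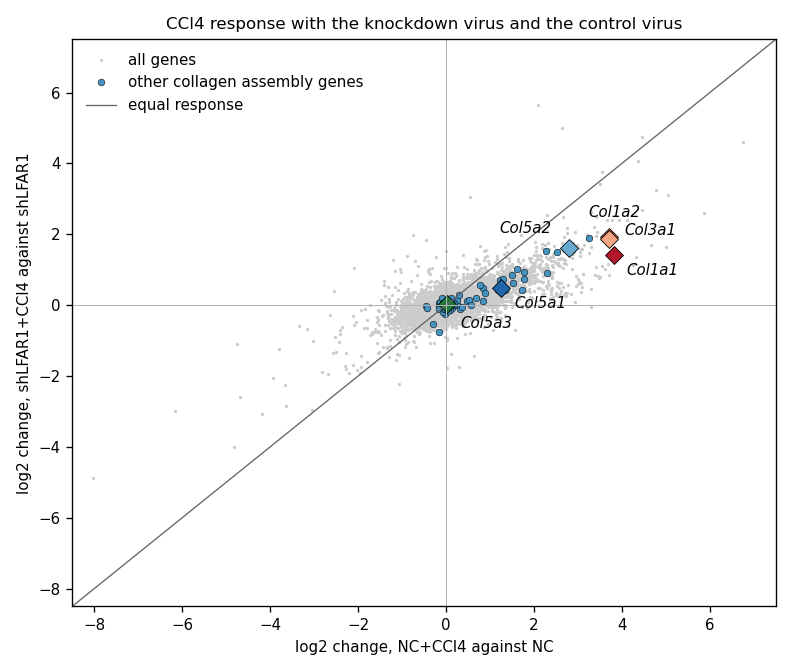
Log2 change with the hairpin virus (shLFAR1+CCl4 against shLFAR1, y axis) against that with the control virus (NC+CCl4 against NC, x axis) for all genes (gray), other collagen assembly genes (blue circles) and the 6 members (diamonds). Col1a1 (3.81 on the x axis, 1.41 on the y axis) and the 4 other responding members lie below the line of equal response, and Col5a3 lies near 0 on both axes.

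Without CCl4, the hairpin virus left the collagen genes within the spread of the arrays. The changes in shLFAR1 against NC were 0.33 for Col1a1, -0.01 for Col1a2, -0.03 for Col3a1, -0.13 for Col5a1, -0.14 for Col5a2 and 0.06 for Col5a3. All 6 members overlapped between the groups, where 10.8% of all genes did not. No member and no gene (0%) was called in limma, and at an unadjusted p under 0.05 there were 0 members and 504 genes. The intervals allow changes of some size, however, reaching from -0.91 to 1.57 for Col1a1 and from -0.83 to 0.80 for Col1a2. For Col1a1, Col1a2, Col3a1, Col5a1 and Col5a2 the group means thus ran in the order NC+CCl4, shLFAR1+CCl4 and then the 2 oil groups. None of the neighbours in that order that were compared differed past the threshold.

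The measured changes differed in size between members, but the exact test used for that difference could not pass the threshold with 3 arrays in each group. Other tests of the difference were not run. Because probe sets are not comparable in level, the difference between each gene and Col1a2 was taken within every array and then compared between groups by a two-sided exact permutation test, whose smallest possible p with 3 arrays in each group is 0.1. Of 15 such tests, the smallest adjusted p was 0.167. In NC+CCl4 against NC, Col3a1 changed by 0.01 log2 units more than Col1a2 (exact p = 0.9) and Col1a1 by 0.11 more (exact p = 0.7). Col5a2 changed by 0.90 less, Col5a1 by 2.46 less and Col5a3 by 3.67 less in the same comparison (first minus second, -0.90, -2.46 and -3.67), each with the smallest p the design allows (exact p = 0.1) and without overlap of the arrays. Without NC+CCl4 replicate 1 the 5 values, from Col3a1 to Col5a3 in this order, were 0.09, -0.04, -0.66, -2.40 and -3.99. These sizes also depend on the probe set chosen for Col1a2, as the other probe sets described further on show.

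How closely the responding genes varied together within groups depended on replicate 3 of shLFAR1+CCl4, the highest array of its group for each of the 5 genes. After the group means were removed, Pearson's r over the 12 arrays was 0.97 between Col1a2 and Col3a1, 0.92 between Col1a1 and Col1a2 and 0.93 between the neighbouring genes Col3a1 and Col5a2. The 10 pairs among the 5 responding genes ran from 0.68 to 0.97, and the pairs with Col5a3 from -0.20 to 0.16. Without replicate 3 of shLFAR1+CCl4, the 10 pairs ran from -0.01 (Col5a1 and Col5a2) to 0.92, with 0.61 between Col1a1 and Col1a2, 0.79 between Col3a1 and Col5a2 and 0.02 between Col1a1 and Col5a2. Without NC+CCl4 replicate 1 they ran from 0.70 to 0.98. In NC+CCl4, replicate 1 was the highest array for Col1a1 (8.79) and the lowest for Col5a2 (8.10), so these 2 genes did not share their order there. These values are descriptions and carry no test.

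Of the non-members, those with a profile most like the mean standardized profile of the members were Cyria (r = 0.99 over 12 arrays), Pfkfb4 (0.99), Ifi27l2a (0.98), Tmem86a (0.98), Ly6e (0.98), Tmsb10 (0.98), Oas1a (0.98) and Sirpa (0.98). Values of Cyria ran from 3.12 to 4.55 and those of Pfkfb4 from 4.11 to 5.17, so many of them may be background. Pfkfb4 is a regulatory enzyme of glycolysis, Tmsb10 binds actin monomers, Oas1a is induced by interferon and Sirpa is a receptor of myeloid cells. The members themselves had r between 0.93 and 0.98, except Col5a3 with 0.21. These r values include the differences between the groups and carry no test. Without replicate 3 of shLFAR1+CCl4, 6 of the 8 genes were still among the 8 most like the members, and without NC+CCl4 replicate 1 there were 2 of 8 (Cyria and Tmem86a), although the r of the 8 genes was 0.97 to 0.99 in the second case. Tmsb10 shows the pattern. It was at 9.49, 9.55 and 11.39 in shLFAR1+CCl4 and at 11.36, 11.60 and 11.08 in NC+CCl4, against 8.79, 9.31 and 8.96 in shLFAR1 and 8.91, 9.01 and 8.88 in NC, so that here too replicate 3 of shLFAR1+CCl4 was among the NC+CCl4 arrays.

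The other probe sets of the members served as a check. In all there were 14, of which 8 were not used above. In NC+CCl4 against NC, the 7 other probe sets of Col1a1, Col1a2, Col3a1, Col5a1 and Col5a2 were each called higher with p adjusted over all probe sets (adjusted p 0.0005 to 0.0475). Their changes were 2.97 for Col1a1, 4.80 and 0.54 for Col1a2, 3.74 for Col3a1, 1.84 and 0.65 for Col5a1 and 1.65 for Col5a2. The probe set of Col1a2 with the change of 0.54 had a mean of 2.78, well below the array medians. The other probe set of Col5a3 had a change of -0.34 (adjusted p = 0.144) and a mean of 2.81. In shLFAR1+CCl4 against NC+CCl4, the 7 other probe sets of the responding genes ran from -2.09 to -0.37, none of them called (adjusted p 0.113 to 0.342).

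**Figure D4:**
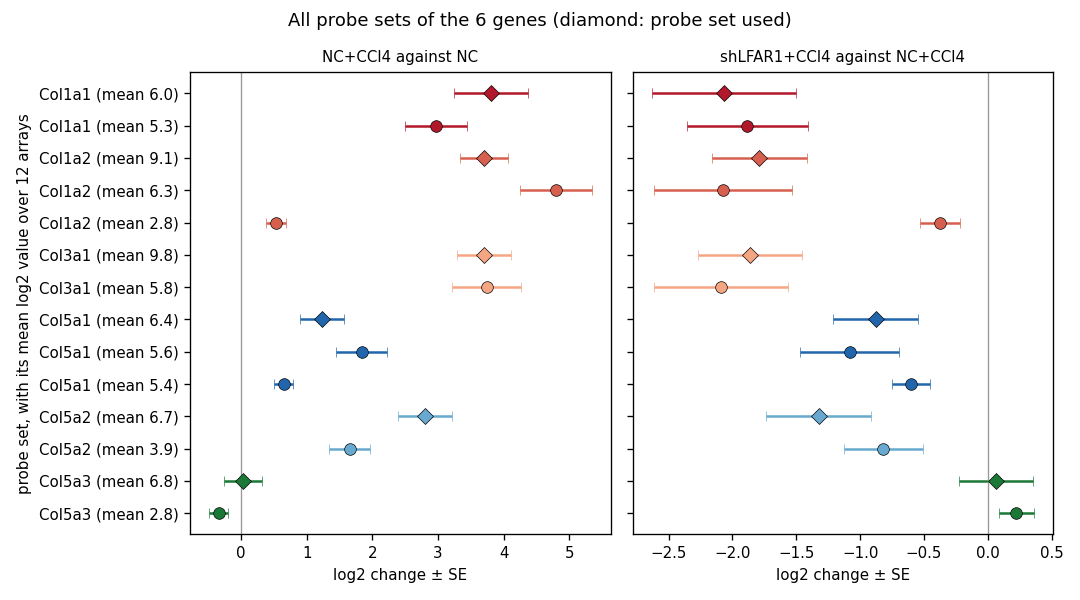
Log2 change ± SE (x axis) of all 14 probe sets of the members (y axis, with each probe set's mean log2 value over 12 arrays), at left for NC+CCl4 against NC and at right for shLFAR1+CCl4 against NC+CCl4; diamonds are the probe sets used. The probe sets of each responding gene share their direction, while the size differs, as for Col1a2 with 3.70, 4.80 and 0.54 in the first panel; Col5a3 has 0.03 and -0.34 there.

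Genes that process, assemble and degrade fibrillar collagen moved in part with the chains. Of 67 such genes in 8 lists, 62 were measured under 1 symbol. In NC+CCl4 against NC, 20 were called higher and 0 lower, 28 had an unadjusted p under 0.05, and the median change was 0.14, where 7.66% of all genes were called higher. The 5 other fibrillar chains (Col2a1, Col11a1, Col11a2, Col24a1 and Col27a1), known from cartilage and other tissues, were not called and had a median change of -0.05. Of these chains, Col2a1 (mean 4.43), Col11a1 (3.34), Col11a2 (4.23) and Col24a1 (2.42) lay close to or below the array medians. Their values may be background, so a lack of change cannot be read from them. Without NC+CCl4 replicate 1, 18 of the 62 genes were called higher and 1 lower (Mia3, a gene of procollagen export, named after its values were seen). None of the 5 genes of procollagen export and none of the 6 collagen receptors was called. Of 16 enzymes and chaperones of chain modification and folding, 5 rose, with a median of 0.25 over the list. Serpinh1, the collagen chaperone Hsp47, was at 8.25, 8.40 and 8.39 in NC+CCl4, against 6.31, 6.79 and 6.63 in NC (change 1.77 ± 0.24, adjusted p = 0.00124). Crtap, a part of the prolyl 3-hydroxylation complex, rose by 1.19, and Plod2, a lysyl hydroxylase, by 0.85 (adjusted p = 0.0271).

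Of 6 genes of propeptide removal, 1 rose. This was Pcolce, the enhancer of the procollagen C-proteinase, with a change of 1.52 (adjusted p = 0.00961). In the same list, Tll1 (mean 2.62), Tll2 (2.65), Adamts3 (3.25) and Pcolce2 (3.82) lay below the array medians and may be background. Of 4 measured genes of the lysyl oxidase family, which crosslink the fibrils, Loxl1 rose by 2.28 and Lox by 0.52. Of 13 proteins of the fibril surface, 8 rose, among them the proteoglycan Lum by 2.53 and the collagen-binding Sparc by 2.29. Of 7 genes of uptake and cleavage, 4 rose. Mmp2, a gelatinase, was at 9.22, 9.05 and 8.93 in NC+CCl4, against 5.82, 6.02 and 5.63 in NC (change 3.24 ± 0.34, adjusted p = 0.00025). The collagen uptake receptor Mrc2 rose by 1.78, and Ctsk, a collagen-degrading cathepsin, by 1.62. Among the genes named here, the calls of Plod2 and Lox were lost most often, in 8 and 4 of 20 alternatives. That of Plod2 was lost without any 1 NC array, NC+CCl4 replicate 2 or NC+CCl4 replicate 3 (adjusted p 0.0586 to 0.0999), and that of Lox without NC replicate 2 (adjusted p = 0.061).

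Under knockdown, 1 of the 62 genes was called in shLFAR1+CCl4 against NC+CCl4, where 0.291% of all genes were called, and 22 had an unadjusted p under 0.05, against 14.2% of all genes. That count depended on the setting, with 15 of the 62 genes called with array weights (920 of all genes), 8 in the methods' t-test at its own threshold (176 of all genes) and 0 after its Benjamini-Hochberg adjustment. Fmod, the proteoglycan fibromodulin that binds type I collagen and modulates its crosslinking, was at 4.83, 5.05 and 5.04 in shLFAR1+CCl4, against 6.28, 6.31 and 6.97 in NC+CCl4. Unlike the 5 responding collagen chains, Fmod had replicate 3 of shLFAR1+CCl4 beside replicates 1 and 2, and no overlap with NC+CCl4. It fell by 1.54 ± 0.24 (adjusted p = 0.0193), and by the same with the replicate block over all arrays (adjusted p = 0.0219). In a fit of the CCl4-treated groups only, the call was lost without the block (adjusted p = 0.255) and with it (adjusted p = 0.198). The call was also lost without NC+CCl4 replicate 3, shLFAR1+CCl4 replicate 1 or shLFAR1+CCl4 replicate 2 (adjusted p = 0.0553, 0.112 and 0.0922). Serpinh1 was at 6.84, 7.21 and 7.98 in shLFAR1+CCl4, against 8.25, 8.40 and 8.39 in NC+CCl4 (change -1.0, adjusted p = 0.0969). Mmp2 was at 6.90, 7.13 and 8.54 in shLFAR1+CCl4, against 9.22, 9.05 and 8.93 in NC+CCl4 (change -1.55, adjusted p = 0.0838), and in shLFAR1+CCl4 against shLFAR1 it was the 1 gene of the lists that was called (1.88, adjusted p = 0.0312). In that comparison 0 of the 62 genes were called when any 1 NC or shLFAR1 array was left out, and 3 without shLFAR1+CCl4 replicate 1. Without replicate 3 of shLFAR1+CCl4, 19 of the 62 genes were called in shLFAR1+CCl4 against NC+CCl4 and 10 in the interaction, and without NC+CCl4 replicate 2 there were 3 in shLFAR1+CCl4 against NC+CCl4. With all arrays, 0 of the 62 were called in shLFAR1 against NC and in the interaction.

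**Figure D5:**
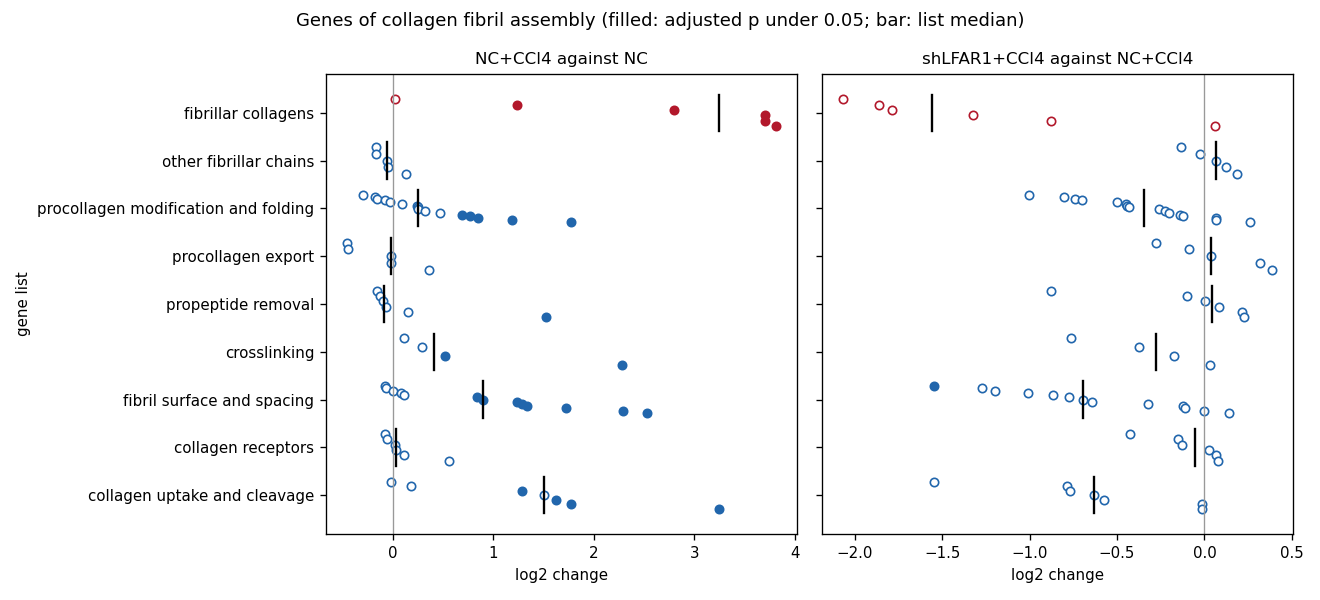
Log2 change (x axis) of the 6 members (red) and of 62 other genes of collagen fibril assembly (blue) by list (y axis), at left for NC+CCl4 against NC and at right for shLFAR1+CCl4 against NC+CCl4; each point is a gene, filled at an adjusted p under 0.05, and black bars are list medians. The members have the highest median of all lists in the first panel (3.25) and the lowest in the second (-1.56), where Fmod is the filled point.

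Some marker lists held genes that were called with CCl4, as the collagen genes were, and other lists held none. In NC+CCl4 against NC, 7.66% of all genes were called higher and 5.4% lower. In that comparison 3 of 5 genes of contractile myofibroblasts rose, including Acta2 (smooth muscle actin) by 1.45 and Tagln by 0.93. Of 9 hepatic stellate cell genes, 3 rose and 1, Ecm1, fell by 1.02, and 3 of 7 portal fibroblast genes rose, with Dpt higher by 2.69. Of 8 macrophage genes, 5 rose, with Lyz2 higher by 3.94, and 4 of 4 proliferation genes rose, with Mki67 higher by 4.25. None of the 7 hepatocyte, 7 endothelial, 5 cholangiocyte and 5 lymphocyte genes was called. The means of Alb (14.33), Ttr (14.09) and Apoa1 (14.03) lay near the highest deposited value of 14.52. A change there could be understated, which was not tested. The means of Cftr (2.53), Krt7 (4.32), Cd79a (3.77) and Ms4a1 (3.96) lay below the array medians and may be background. Without NC+CCl4 replicate 1, 3 contractile myofibroblast, 2 stellate cell, 4 portal fibroblast, 4 macrophage and 3 proliferation genes were called higher. Of all genes, 6.31% were then called higher. None of the hepatocyte, endothelial, cholangiocyte and lymphocyte genes was called. With all arrays, the mean log2 value of the endothelial list was 6.53 to 6.70 in NC+CCl4, against 6.34 to 6.48 in NC. For the cholangiocyte list it was 4.77 to 4.80 in NC+CCl4, against 4.39 to 4.58 in NC. These 2 lists thus did not overlap between the groups, whereas the hepatocyte and lymphocyte lists did.

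In shLFAR1+CCl4 against NC+CCl4, no gene of these 9 marker lists was called. Without replicate 3 of shLFAR1+CCl4, 3 contractile myofibroblast, 3 stellate cell, 2 portal fibroblast, 4 macrophage, 1 endothelial and 4 proliferation genes were called lower. In the same setting 1 hepatocyte gene was called higher, and of all genes 4.9% were called lower and 2.4% higher. The mean log2 value of the contractile myofibroblast list was 5.29, 5.55 and 5.95 in shLFAR1+CCl4, against 5.95, 6.26 and 6.38 in NC+CCl4. For the stellate cell list it ranged from 7.20 to 7.92 in shLFAR1+CCl4 and from 7.79 to 8.06 in NC+CCl4, and for the portal fibroblast list from 4.91 to 5.13 in shLFAR1+CCl4 and from 5.24 to 5.63 in NC+CCl4. For the macrophage list it ranged from 7.72 to 8.70 in shLFAR1+CCl4 and from 8.31 to 9.06 in NC+CCl4. Replicate 3 of shLFAR1+CCl4 had the highest of these list values in its group, as it had for the 5 responding members. The proliferation list was at 4.12, 4.12 and 7.18 in shLFAR1+CCl4, against 9.07, 6.23 and 8.68 in NC+CCl4, and its range in NC was 4.14 to 4.17. In the other marker lists replicate 3 of shLFAR1+CCl4 was not the highest array of its group. The endothelial list was at 6.41, 6.42 and 6.21 in shLFAR1+CCl4, against 6.70, 6.55 and 6.53 in NC+CCl4, with replicate 3 the lowest and no overlap. The hepatocyte list was at 13.39, 13.37 and 13.26 in shLFAR1+CCl4, against 13.07, 13.25 and 13.15 in NC+CCl4. Replicate 3 was again the lowest of its group, but here this placed it nearest to the NC+CCl4 arrays. The groups did not overlap, by the narrow margin of 13.26 against 13.25. The cholangiocyte and lymphocyte lists overlapped between the groups. The part of these cell types in the collagen values was not tested.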

How the data were processed

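Total RNA from mouse liver was hybridized to 12 Affymetrix Mouse Genome 430 2.0 arrays in 4 groups of 3, and the labels gave the group and number of each array. The deposited values are log2 intensities that the authors summarized and normalized, by a method not given in the sources used here. Array means were 5.10 to 5.11, so an overall change in RNA content cannot be read from them. Precision is limited by the number of arrays.

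The platform annotation gave 1 symbol to 34958 of 45101 probe sets, several to 932 and none to 9211. The 34958 covered 18194 genes. A linear model of the 4 groups was fitted to all 12 arrays with limma 3.58.1 in R 4.3.3 (lmFit, then eBayes with an intensity trend, 8 residual degrees of freedom). Tests were two-sided, and p was adjusted by Benjamini-Hochberg over the 18194 genes. No filter, floor or further normalization was applied. The script was tested on simulated data. Promoters came from a RefSeq table (GRCm38.p6), and figures and exact tests were made in Python 3.11.15.

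Named genes were the 6 members, the 8 genes most like them over the arrays, from each assembly list up to 3 called genes with the largest change in NC+CCl4 against NC, and from each marker list up to 3 with the highest mean. The members and lists were chosen with earlier results of these data known. In NC+CCl4 and shLFAR1+CCl4, deviations from the group mean correlated at 0.126, 0.229 and 0.192 between arrays of the same number (-0.234 to 0.0932 for other numbers). The number was therefore taken to pair these groups, from the data alone, and other groups were not paired. The pairing is uncertain, as these correlations are low and the labels do not say what the number marks. Alternatives were no trend, array weights, only the groups compared, a replicate block, a filter at the median gene, quantile normalization, the mean of all probe sets, other probe sets of a member, the methods' t-test and leaving out each array. After seeing the data, correlations, list counts and chain differences were also computed without shLFAR1+CCl4 replicate 3 or NC+CCl4 replicate 1.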

Additional observations from a re-analysis of the deposited data

How the results depend on the processing

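No result changed direction past the threshold under any alternative. In NC+CCl4 against NC, 4 to 5 members and 1262 to 2923 of all genes were called when 1 array was left out; the methods' t-test gave 1262 genes at its own threshold and 280 after Benjamini-Hochberg adjustment, against 2375 in the fit with all arrays. In shLFAR1+CCl4 against NC+CCl4, leaving out 1 array gave 0 to 5 members and 4 to 1327 genes, with 5 members and 1327 genes without shLFAR1+CCl4 replicate 3. Array weights gave 5 members and 920 genes, the methods' t-test gave 2 members and 176 genes at its threshold and 0 genes after adjustment, and the fit of only the groups compared gave 0 genes, against 53. In shLFAR1+CCl4 against shLFAR1, leaving out 1 array gave 0 to 3 members and 23 to 110 genes, array weights 2 members and 375 genes, the filter at the median gene 1 member, and the methods' t-test 1 member and 240 genes at its threshold and 0 genes after adjustment, against 74. In the interaction, leaving out 1 array gave 0 to 5 members and 0 to 581 genes, array weights 3 members and 393 genes, the filter 10 genes and the mean of all probe sets 2 genes, against 4. In shLFAR1 against NC, only the groups compared gave 3 genes, the methods' t-test at its threshold 31, and leaving out 1 array 0.

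With the replicate block over all arrays, 2 members and 97 of all genes were called in shLFAR1+CCl4 against shLFAR1, against 0 and 74 without it. The members were Col1a2 (adjusted p = 0.0399) and Col3a1 (adjusted p = 0.0437), although the numbers were not taken to pair these groups. In shLFAR1+CCl4 against NC+CCl4, the block over all arrays gave 55 genes, 39 of them shared with the 53 called without it, and the fit of the CCl4-treated groups only gave 0 genes with the block and 0 without it. The block changed no other call of a member. The fold changes of genes whose values may be background, such as Col1a1 in NC, could be understated, which was not tested. The cause of the differences between settings was not tested.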
